A study of Mus musculus with 104 samples.

Results

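The transcripts of the receptors for noradrenaline and adrenaline, serotonin, histamine, acetylcholine and, for 3 of its receptors, dopamine were measured in the mouse cerebral cortex. Members were taken by symbol from the RefSeq gene counts: the serotonin receptors Htr1 to Htr7, the adrenergic alpha and beta receptors, the muscarinic receptors Chrm1 to Chrm5, all nicotinic subunits (Chrn), Drd3, Drd4 and Drd5, and the histamine receptors Hrh1 to Hrh4. The symbols picked 51 of 24060 genes: 16 nicotinic, 14 serotonin, 9 adrenergic, 5 muscarinic, 4 histamine and 3 dopamine genes. The study sequenced 104 cortices of wild type C57BL/6 mice aged 6 months, 52 female and 52 male. The mice came from 13 lines, each named after a gene and holding 4 females and 4 males: Tbc1d8, Gsg1l, Zswim6, Rgs9, Rasgef1a, Ppp1ca, Pcdh20, Morf4l1, Kdm3b, Hrk, Ece2, Dach1 and Arpp19. Every animal is labelled wild type, and the labels give no treatment. The label does not show whether the lines differ in other alleles. The labels give the line as the batch, so that line and batch cannot be told apart, and they put 96 libraries on plate 1 and 8 on plate 2.

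Libraries held 3389134 to 33489259 reads assigned to genes, with a median of 28381482. The smallest is Kdm3b female 22, and the second smallest library held 23932277 reads. In 3 libraries the sex-linked genes went against the labelled sex (Rasgef1a female 39, Rasgef1a male 40 and Rgs9 female 43). The choroid plexus markers summed to 1.43 to 309 CPM (reads scaled to the library size), with a median of 2.95. Of the 51 receptor genes, 39 had enough reads to be tested, and no count below over those 39 stands for all 51.

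As background, these receptors read out the diffuse systems whose cell bodies lie in small nuclei below the cortex, together with acetylcholine from the basal forebrain. Most are G protein-coupled: Gq-coupled receptors raise calcium, Gi-coupled receptors lower cyclic AMP and often sit on axon terminals, and Gs-coupled receptors raise cyclic AMP. The nicotinic subunits and Htr3a and Htr3b form ligand-gated cation channels of 5 subunits instead. The transmitters themselves are made mostly outside the cortex, so cortical tissue holds the receptors but few of the cells that make their ligands.

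The sequences just before the transcription starts are shown for 3 members, Hrh3 and Chrm3 at high levels and Htr3b near 0. The median number of CpG dinucleotides there was lower only among members at the lowest levels. The table of RefSeq promoter sequences used here (GRCm38.p6) could be matched to 38 of the 51 genes. Hrh3, the member with the highest median level, Chrm3 and Htr3b, which is listed at 0 in most libraries, are printed 5′ to 3′ on the gene's strand, for 250 bases that end just before a start listed there, with each CpG in capitals. They lie at chr2:180104408-180104657, chr13:10360804-10361053 and chr9:48964991-48965240, all on the minus strand. The RefSeq gene spans reach further upstream for Hrh3 (to 180104484) and Chrm3 (to 10361062), so these 2 windows precede a listed start and not the outermost end of the gene.
Hrh3: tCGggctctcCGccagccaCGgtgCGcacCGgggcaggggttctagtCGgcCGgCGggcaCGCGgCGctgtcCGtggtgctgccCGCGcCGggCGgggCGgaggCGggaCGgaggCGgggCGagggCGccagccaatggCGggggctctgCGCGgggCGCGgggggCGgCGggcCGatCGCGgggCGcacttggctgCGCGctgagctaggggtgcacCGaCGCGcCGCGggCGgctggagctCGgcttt
Chrm3: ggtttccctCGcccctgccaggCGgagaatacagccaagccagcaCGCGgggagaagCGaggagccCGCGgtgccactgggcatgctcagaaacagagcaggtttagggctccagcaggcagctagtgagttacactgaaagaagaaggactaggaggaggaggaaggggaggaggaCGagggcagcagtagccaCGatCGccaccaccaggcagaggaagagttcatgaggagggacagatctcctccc
Htr3b: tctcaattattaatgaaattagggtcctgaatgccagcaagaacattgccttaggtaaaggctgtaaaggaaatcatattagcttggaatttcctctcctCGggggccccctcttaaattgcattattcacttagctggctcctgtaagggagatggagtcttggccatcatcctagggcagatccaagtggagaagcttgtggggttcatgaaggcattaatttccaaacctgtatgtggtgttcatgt

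The Hrh3 window holds 42 CpGs, the Chrm3 window 10 and the Htr3b window 1. Among the 21 matched members with a median level of at least 1 FPKM (reads scaled by transcript length and library size, the unit used here for levels between genes) the median was 12.5 CpGs, against 16 among 9488 genes at that level. The 7 members at 0.1 to 1 FPKM had a median of 13 (7.5 among 1908 genes), and the 10 members under 0.1 FPKM a median of 2 (1 to 23), against 2 among 5403 genes. The drop at the lowest levels was thus also seen in genes at large. The members' ranges overlapped, with 4 to 42 CpGs at 1 FPKM or more and 3 to 35 at 0.1 to 1 FPKM. The 3 windows shown thus do not stand for a steady trend with level. The letters GGGCGG, read on both strands, occurred in 20 of the 38 windows (52.6%) and in 35.4% of the windows of 27018 genes. CCAAT occurred in 31.6% against 37.5%, TATAAA in 5.26% against 14.3%, CACGTG in 7.89% against 6.86%, and TGACGTCA in none of the 38 against 1.77%. These are matches of letters and were not tested. Among the members not matched in that table are Chrnb3, Htr3a, Chrna6, Adra1a and Chrm1.

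Muscarinic receptor transcripts were the most abundant class and those of Drd3, Drd4 and Drd5 the least. The muscarinic genes summed to a median of 92.3 FPKM per library (78.2 to 104.4), the adrenergic genes to 53.7 (45.4 to 60.9), the histamine genes to 50.3 (35.6 to 63.4), the serotonin genes to 33.4 (30.1 to 36.8) and the nicotinic genes to 32.9 (29.4 to 37.1). Drd3, Drd4 and Drd5 together came to 0.640 (0.284 to 1.09). Read by coupling, the 10 Gq-coupled receptors held a median of 41.3% of the summed receptor FPKM, the 15 Gi-coupled receptors 34.1%, the 18 channel subunits 13.6% and the 8 Gs-coupled receptors 10.7%. A median of at least 1 FPKM was reached by 27 of the 51 genes.

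**Figure D1:**
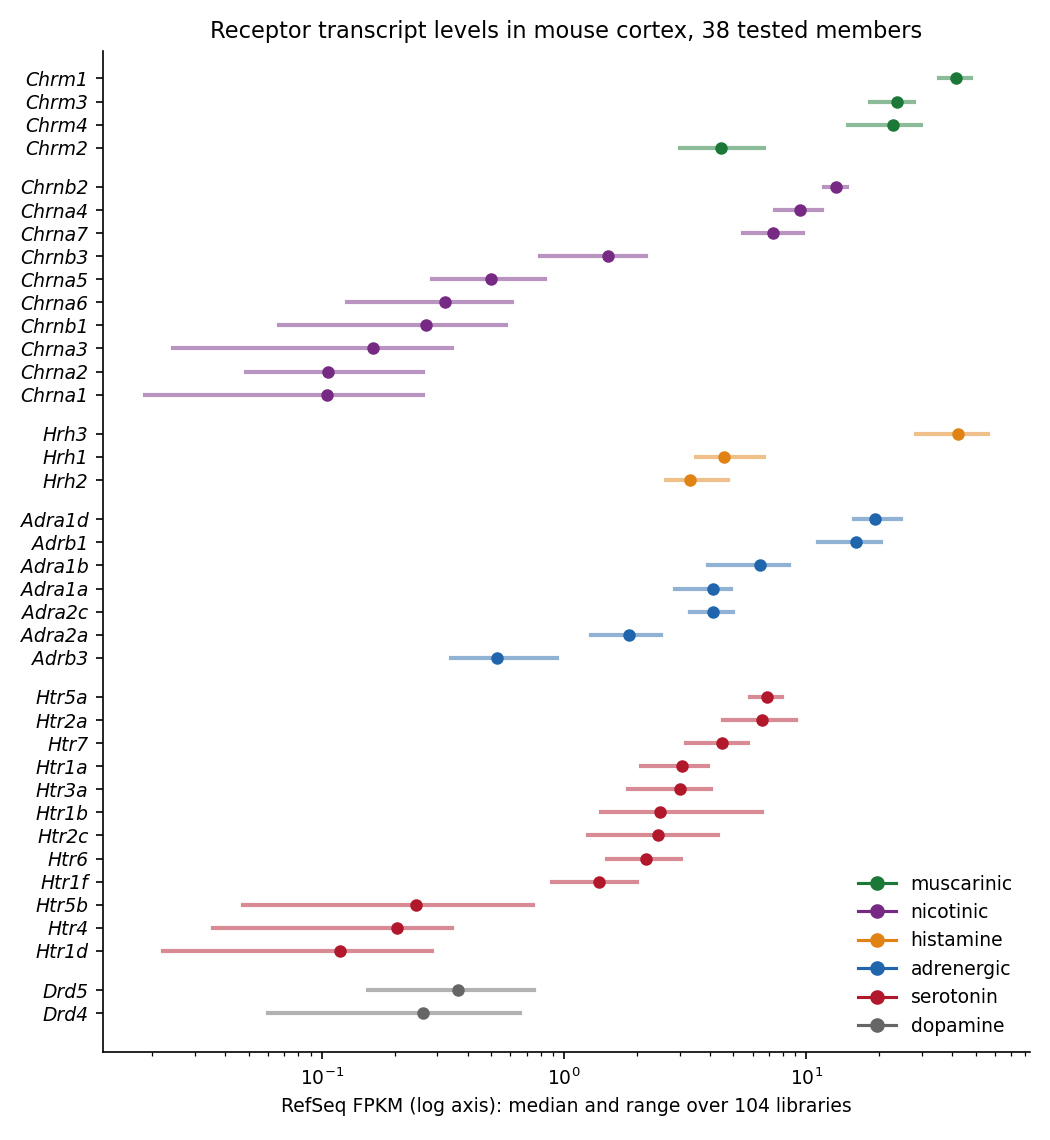
Level of 38 of the 39 tested receptor transcripts, grouped by transmitter: the point is the median FPKM over 104 libraries and the bar the full range, on a log axis. Hrh3 and Chrm1 lie highest at 42.3 and 41.5 FPKM, and the dopamine members stay under 1 FPKM in every library.

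The histamine class was nearly a single gene. Hrh3, the Gi-coupled autoreceptor that holds back histamine release and also sits on other axons, had a median of 42.3 FPKM (28.3 to 55.9), which was 84.2% of the histamine total (76.6 to 88.2% over libraries). Hrh1, the Gq-coupled receptor that antihistamines block in the brain, had 4.58 (3.50 to 6.70), and Gs-coupled Hrh2 had 3.29 (2.64 to 4.75). Hrh3 exceeded Hrh1 in 104 of 104 libraries with no overlap of their ranges, and Hrh1 exceeded Hrh2 in 103. Hrh4, known from immune cells, had 0 reads in 94 libraries.

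Among the muscarinic receptors Chrm1, the Gq-coupled receptor of cortical pyramidal cells, led with 41.5 FPKM (35.2 to 47.6), 44.5% of the class. Gq-coupled Chrm3 followed with 23.7 (18.2 to 27.7) and Gi-coupled Chrm4 with 22.8 (14.8 to 29.6). Chrm1 lay above Chrm3 in 104 libraries without overlap, whereas Chrm3 lay above Chrm4 in only 60, so that their order was not fixed. Chrm2, the Gi-coupled receptor found on cholinergic terminals, had 4.44 (3.004 to 6.69) and stayed below Chrm4 in all 104 libraries. Chrm5, known from midbrain dopamine neurons, had a median of 0.0382 and 0 reads in 19 libraries.

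The nicotinic transcripts were those of the common brain receptors. Chrnb2, the partner subunit of most high-affinity nicotinic receptors, had 13.2 FPKM (11.8 to 14.7), Chrna4, its usual alpha partner, 9.39 (7.39 to 11.6), and Chrna7, which forms channels on its own, 7.25 (5.45 to 9.69). They made up 40.1%, 28.5% and 22.2% of the nicotinic total. Chrnb2 exceeded Chrna4 in 104 libraries without overlap, and Chrna4 exceeded Chrna7 in 103. Chrnb3, an accessory subunit, followed at 1.51 (0.794 to 2.17). Chrna5 (0.498), Chrna6 (0.322), Chrnb1 (0.269), Chrna3 (0.162), Chrna2 (0.106) and Chrna1 (0.105) had medians under 1 FPKM. The muscle subunits Chrnd, Chrng and Chrne, the hair cell subunits Chrna9 and Chrna10, and Chrnb4 were not tested: Chrnd had 0 reads in all 104 libraries, and Chrng 3 reads in all.

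In the adrenergic class the Gq-coupled Adra1d, with 19.2 FPKM (15.7 to 24.7), and the Gs-coupled Adrb1, with 16.01 (11.2 to 20.2), held 35.6% and 29.7%. Adra1d was the higher in 94 of 104 libraries. The other alpha-1 receptors, Adra1b and Adra1a, had 6.43 and 4.13. Of the Gi-coupled alpha-2 receptors, Adra2c had 4.11 and Adra2a 1.84, while Adra2b had 0.0190 and was not tested. Adra1a lay above Adra2c in 50 of 104 libraries, so those neighbours were not ordered. Adrb3, best known from fat, had 0.529.

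The serotonin receptors were spread evenly over several genes. Htr5a (Gi-coupled) had 6.86 FPKM (5.85 to 7.92) and Htr2a, the Gq-coupled receptor on which psychedelic drugs act, 6.57 (4.54 to 9.07), or 20.7% and 19.7% of the class, and Htr5a was the higher in 70 of 104 libraries. Gs-coupled Htr7 followed with 4.48, Gi-coupled Htr1a with 3.06 and the channel subunit Htr3a with 3.02. Gi-coupled Htr1b had 2.48 (1.42 to 6.56), Htr2c 2.44 (1.251 to 4.32), Htr6 2.17 and Htr1f 1.40. Htr1a lay above Htr3a in 53 libraries and Htr1b above Htr2c in 54, so neither pair was ordered. Htr5b (0.246), Htr4 (0.205) and Htr1d (0.119) stayed under 1 FPKM. Htr2b and Htr3b were not tested, and Htr3b, which joins Htr3a in mixed channels, had 0 reads in 75 libraries.

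The dopamine members were scarce. The Gs-coupled Drd5 had 0.365 FPKM (0.155 to 0.755) and the Gi-coupled Drd4 0.263 (0.0599 to 0.660), and Drd5 was the higher in 85 of 104 libraries. Drd3, known from the ventral striatum, had 0 reads in 84 libraries and was not tested. Beside them, the principal dopamine receptors, which are no members, had 1.77 FPKM for Drd1a and 0.302 for Drd2.

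The receptors differed in how much they varied across mice. The spread is the coefficient of variation of the CPM after removing the part that read counting alone gives. It was smallest for Chrnb2 (3.59%), Htr5a (5.44%), Chrm1 (6.65%), Adra2c (6.99%) and Chrm3 (7.13%). It was largest for Htr5b (45.6%), Htr1b (27.02%), Chrna3 (26.996%), Htr2c (25.04%) and Chrna1 (24.6%). The median over the 39 members was 12.1%, against 6.86% over the 15723 genes tested, and since low genes vary more, levels were also compared in ranges. At 100 CPM or more the 2 members had a median spread of 9.39% against 4.65% for all genes, and at 10 to 100 CPM the 16 members 10.1% against 5.47%. At 1 to 10 CPM the 12 members had 13.2% against 10.7%, and below 1 CPM the 9 members 21.2% against 22.3%. Of the 5 smallest, Chrm1, Adra2c and Chrm3 thus lay above the median of all genes in their range. Htr5a lay close to it, and Chrnb2 below it. These are descriptions, and no test was made of the difference.

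**Figure D2:**
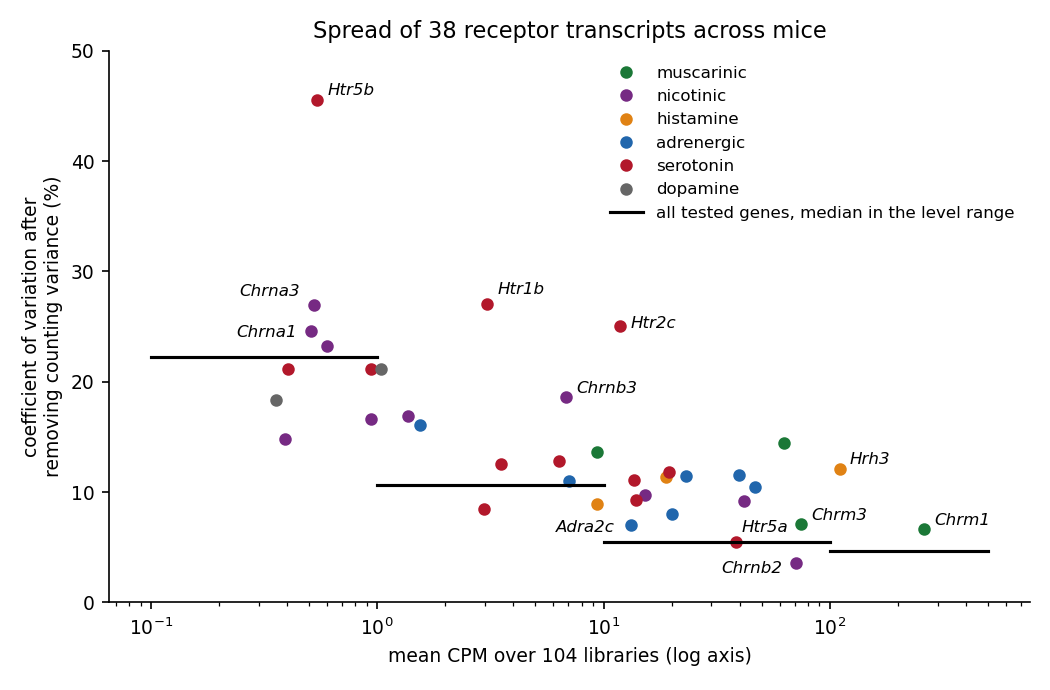
Spread of 38 of the 39 tested receptor transcripts over 104 libraries against their mean CPM (log axis), coloured by transmitter, with the median of all tested genes in 4 level ranges as black lines. Htr2c and Htr1b stand far above the lines at their level, at 25.04% and 27.02%, and Chrnb2 lies below, at 3.59%.

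Htr1b and Htr2c varied widely inside lines, and neither passed the test among lines described below. Htr1b ran from 1.64 to 7.72 CPM with a median of 2.87. Its line means ran only from 2.59 ± 0.79 (SD, n = 8) in Gsg1l to 3.95 ± 2.05 in Rasgef1a, whose libraries covered 1.90 to 7.72. Htr2c, a Gq-coupled receptor that is densest in the choroid plexus, ran from 5.93 to 20.4 CPM with a median of 11.7, and its line means from 10.6 ± 1.99 in Zswim6 to 13.4 ± 3.32 in Rgs9. Htr5b, which is close to silent here, rested on 2 to 42 reads per library.

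Of the 39 tested members, only the nicotinic subunit Chrnb3 differed among the 13 lines. Across all genes 9.61% passed this test. Chrnb3 had an adjusted p of 1.12e-09 (edgeR's quasi-likelihood F-test over lines with a term for sex, Benjamini-Hochberg adjustment over all tested genes, as for every adjusted p below). The next members were Adra1a (adjusted p = 0.0533), Htr3a (0.0638) and Chrm1 (0.0903). At an unadjusted p under 0.05 there were 9 members, 23.1% of the 39, close to the 23.5% of all genes. DESeq2 called 3 members.

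Chrnb3 (chr8:27368711-27399730, GRCm38) was lowest in Tbc1d8 and next lowest in Gsg1l. In Tbc1d8 the females had 5.53, 4.21, 4.71 and 5.07 CPM and the males 3.88, 3.68, 3.70 and 5.03, a mean of 4.48 ± 0.71 (SD, n = 8). In Gsg1l the females had 5.50, 6.28, 5.92 and 5.37 and the males 6.03, 5.19, 4.84 and 4.38, a mean of 5.44 ± 0.64. The 88 libraries of the other 11 lines had a median of 7.09 (4.32 to 10.02) and a mean of 7.17 ± 1.16. All 8 libraries of each of these lines lay below that median, but the ranges overlapped: 7 of the 88 reached down to the highest Tbc1d8 library and 15 to the highest Gsg1l library. The next lowest line was Dach1 with 6.06 ± 1.06, and the highest were Pcdh20 with 7.683 ± 1.196 and Morf4l1 with 8.18 ± 0.98.

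Against the mean of the other 12 lines, Chrnb3 fell by 0.64 ± 0.08 (SE) on the log2 scale in Tbc1d8 (adjusted p = 9.94e-10) and by 0.34 ± 0.08 in Gsg1l (adjusted p = 0.00129). The difference between the 2 lines, Tbc1d8 minus Gsg1l, was -0.28 ± 0.11 with an unadjusted p of 0.00943 and an adjusted p of 0.994, where 0.00636% of all genes passed. Of the 39 members 0 passed there, and 3 had an unadjusted p under 0.05 (7.69%, against 4.93% of all genes). With both lines left out, no member passed the line test, and Chrnb3 had an adjusted p of 0.472. These lines were picked after the data were seen, as those with called members. A weaker Chrnb3 result was thus built into this run. In females alone the Gsg1l difference was -0.33 with an adjusted p of 0.139. With log2(FPKM + 1) as the scale, which shrinks changes of low genes, limma gave -0.35 in Tbc1d8 and -0.19 in Gsg1l, both past the threshold.

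**Figure D3:**
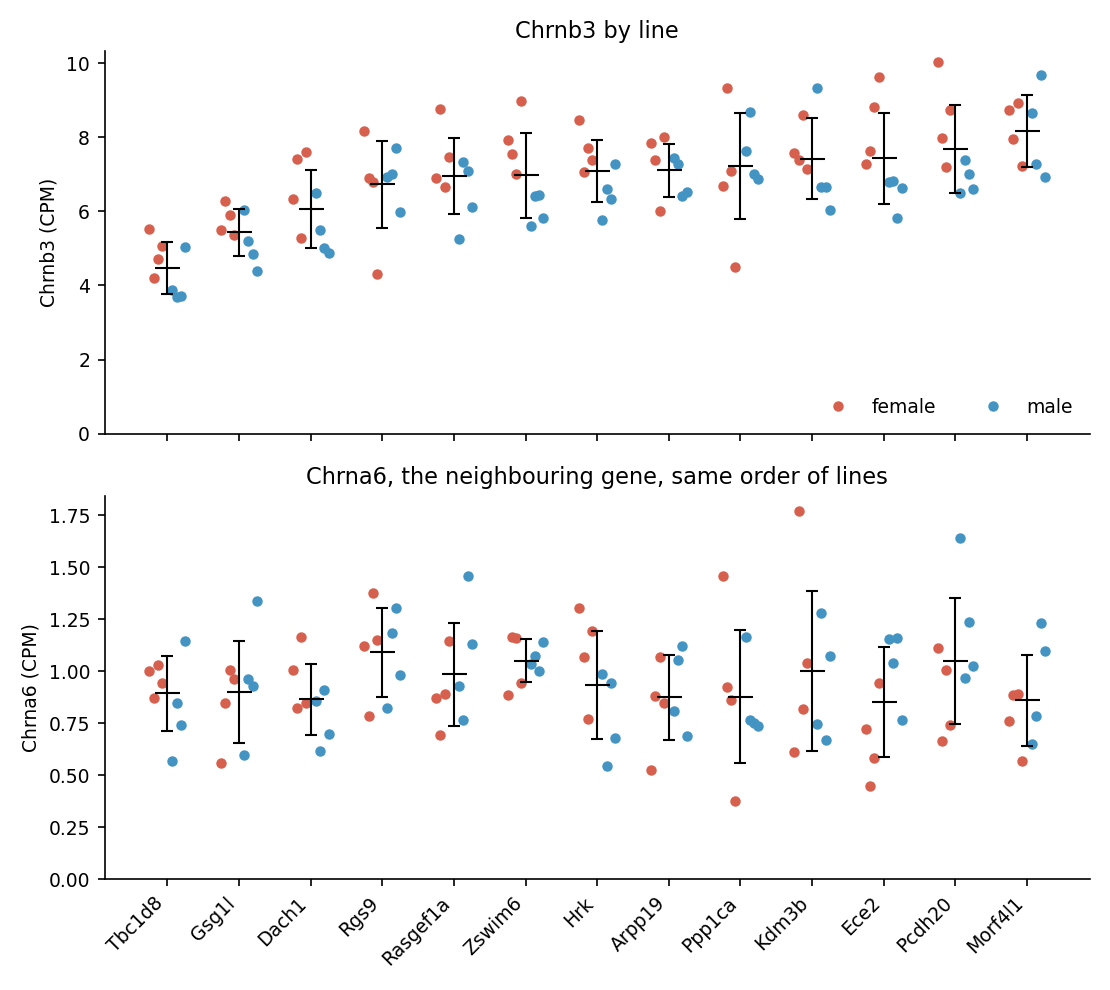
Chrnb3 (upper panel) and its neighbour Chrna6 (lower panel, same order of lines) in CPM in every library, by line, with females and males in separate colours and the mean ± SD of 8 libraries in black. For Chrnb3, Tbc1d8 and Gsg1l lie lowest, at 4.48 and 5.44 CPM, and Morf4l1 highest, at 8.18.

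Chrna6, the alpha subunit that often joins Chrnb3 in one receptor, lies 3481 bases away on the same chromosome (chr8:27403212-27413944). It had 0.892 ± 0.181 CPM in Tbc1d8 and 0.900 ± 0.246 in Gsg1l, against 0.944 in the other 11 lines. Its log2 differences were -0.06 ± 0.14 (adjusted p = 0.861) and -0.05 ± 0.14 (0.853). Chrnb3 is known from thalamic and habenular neurons. The 7 thalamic markers summed to a median of 233 CPM in Tbc1d8 (221 to 248), 235 in Gsg1l (204 to 266) and 256 in the other 11 lines (226 to 284). No marker was at 0, and 2 of the 7, Rora and Slc17a6, were called lower in both lines. The others did not pass: Prkcd, Lef1 and Ramp3 had higher values in both lines, and Tcf7l2 and Synpo2 differed in sign between them. The median log2 difference over the 7 was 0.04 in Tbc1d8 and 0.03 in Gsg1l. The 5 habenular markers summed to 51.1, 50.3 and 50.1. Most of this sum was Lrrc55, with means of 34.6, 34.9 and 35.8 CPM, so the sum says little about the other markers. In Tbc1d8 1 of the 4 tested, Gpr151, a receptor of habenular neurons, fell by 0.51 ± 0.17 (adjusted p = 0.0322), with 0.536 ± 0.155 CPM against 0.774 ± 0.230 in the other 11 lines. The other tested markers did not pass there: Calb2 had 0.18 ± 0.07 (adjusted p = 0.0660), Tac2 0.06 ± 0.07 and Lrrc55 -0.05 ± 0.04. In Gsg1l Gpr151 had 0.641 ± 0.175 CPM and a value of -0.23 ± 0.16 (adjusted p = 0.408). Medians of other marker sums differed as well, without a test, and are given in the same order of groups. The brainstem and midbrain sum had medians of 1.82, 2.00 and 2.55 CPM and the oligodendrocyte sum 1946, 1886 and 2139. The hippocampal sum went the other way, with 116, 102 and 96.0. The part of habenular, midbrain or hippocampal tissue in the Chrnb3 result was not tested. With striatal, thalamic, oligodendrocyte, choroid plexus and layer 6 marker scores as covariates the Chrnb3 differences were -0.58 in Tbc1d8 and -0.31 in Gsg1l, both still past the threshold. In tissue RNA, fewer cells of a type and less RNA per cell cannot be told apart.

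The contrasts of Tbc1d8 and Gsg1l each hold the other line among their controls, so the values are given side by side and not as independent results. In Tbc1d8, where 12.4% of all genes passed (5.66% higher and 6.79% lower), 2 of 39 members did, Chrnb3 lower and Htr3a higher. In Gsg1l, where 10.4% of all genes passed (4.86% higher and 5.58% lower), 4 members did: Chrnb3, Adra1a and Htr5b lower and Htr3a higher. At an unadjusted p under 0.05 there were 4 members in Tbc1d8 (10.3%, against 25.5% of all genes) and 7 in Gsg1l (17.9%, against 24.7%), so that the members' shares lay at or below the background. The median size of the log2 difference over the members was 0.08 in both lines, against 0.05 over all genes in both.

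Htr3a (chr9:48899213-48911152), the obligatory subunit of the serotonin-gated channel and a marker of a large class of cortical interneurons, had 7.14 ± 0.85 CPM in Tbc1d8 (5.41 to 8.12, n = 8) and 7.33 ± 1.05 in Gsg1l (5.22 to 8.41). The other 11 lines had 6.19 ± 0.86 (3.84 to 7.93). In each of these lines 7 of 8 libraries lay above the median of the others, with ranges that overlapped widely. The rise was 0.18 ± 0.06 on the log2 scale in Tbc1d8 (adjusted p = 0.0445) and 0.22 ± 0.06 in Gsg1l (adjusted p = 0.0123). The Tbc1d8 call was lost on leaving out any of 6 of its 8 libraries (females 45, 46 and 48 and males 45, 47 and 48), with adjusted p up to 0.132, and the Gsg1l call on leaving out female 16 (0.0884). Of these libraries, Tbc1d8 males 45 and 47 and Gsg1l female 16 were on plate 2. On plate 1 alone, with fewer libraries, the Tbc1d8 call was lost too. With the tissue scores as covariates the differences were 0.12 (adjusted p = 0.184) and 0.13 (0.133). The 10 interneuron markers summed to a median of 1268 CPM in Tbc1d8, 1270 in Gsg1l and 1284 in the other lines.

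Adra1a, a Gq-coupled adrenergic receptor, had 18.1 ± 2.35 CPM in Gsg1l (13.6 to 20.8, median 18.8) against 20.3 ± 1.67 in the 88 libraries of the other 11 lines (16.7 to 23.96), with 7 of 8 libraries below their median. It fell by 0.15 ± 0.05 on the log2 scale (adjusted p = 0.0191), and its value in Tbc1d8 was -0.10 (adjusted p = 0.157). The Gsg1l call was lost without female 13 (adjusted p = 0.0550), female 16 (0.0747) or male 13 (0.189, difference -0.10). Of these, female 16 was on plate 2 and the others on plate 1. Htr5b, a Gi-coupled serotonin receptor known from the habenula and hippocampus, had 0.298 ± 0.175 CPM in Gsg1l, from 3 to 18 reads per library, against 0.570 ± 0.288 in the other 11 lines. It fell by 0.88 ± 0.29 (adjusted p = 0.0359), and its value in Tbc1d8 was -0.09 (adjusted p = 0.876). Leaving out any of 6 Gsg1l libraries (females 13, 15 and 16 and males 13, 15 and 16) ended this call, with adjusted p of 0.0588 to 0.124.

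In the other 11 lines no member stood apart by edgeR's test, and few genes of any kind did: 0.165% of all genes in Dach1, 0.108% in Rasgef1a, 0.0445% in Rgs9, 0.0318% in Morf4l1, 0.0127% each in Ece2 and Pcdh20, 0.00636% in Arpp19, and 0% in Hrk, Kdm3b, Ppp1ca and Zswim6. At an unadjusted p under 0.05 there were 6 members in Dach1 (15.4% of the 39, against 7.87% of all genes) and 6 in Kdm3b (against 13.5%). There were 4 in Ppp1ca (10.3%, against 4.39%) and in Rasgef1a (against 10.3%), and 3 in Rgs9 (7.69%, against 7.7%) and in Zswim6 (against 5.21%). Arpp19, Hrk and Morf4l1 had 2 each (5.13%, against 4.74%, 5.02% and 10.4%), and Ece2 and Pcdh20 had 1 each (2.56%, against 5.34% and 2.83%).

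**Figure D4:**
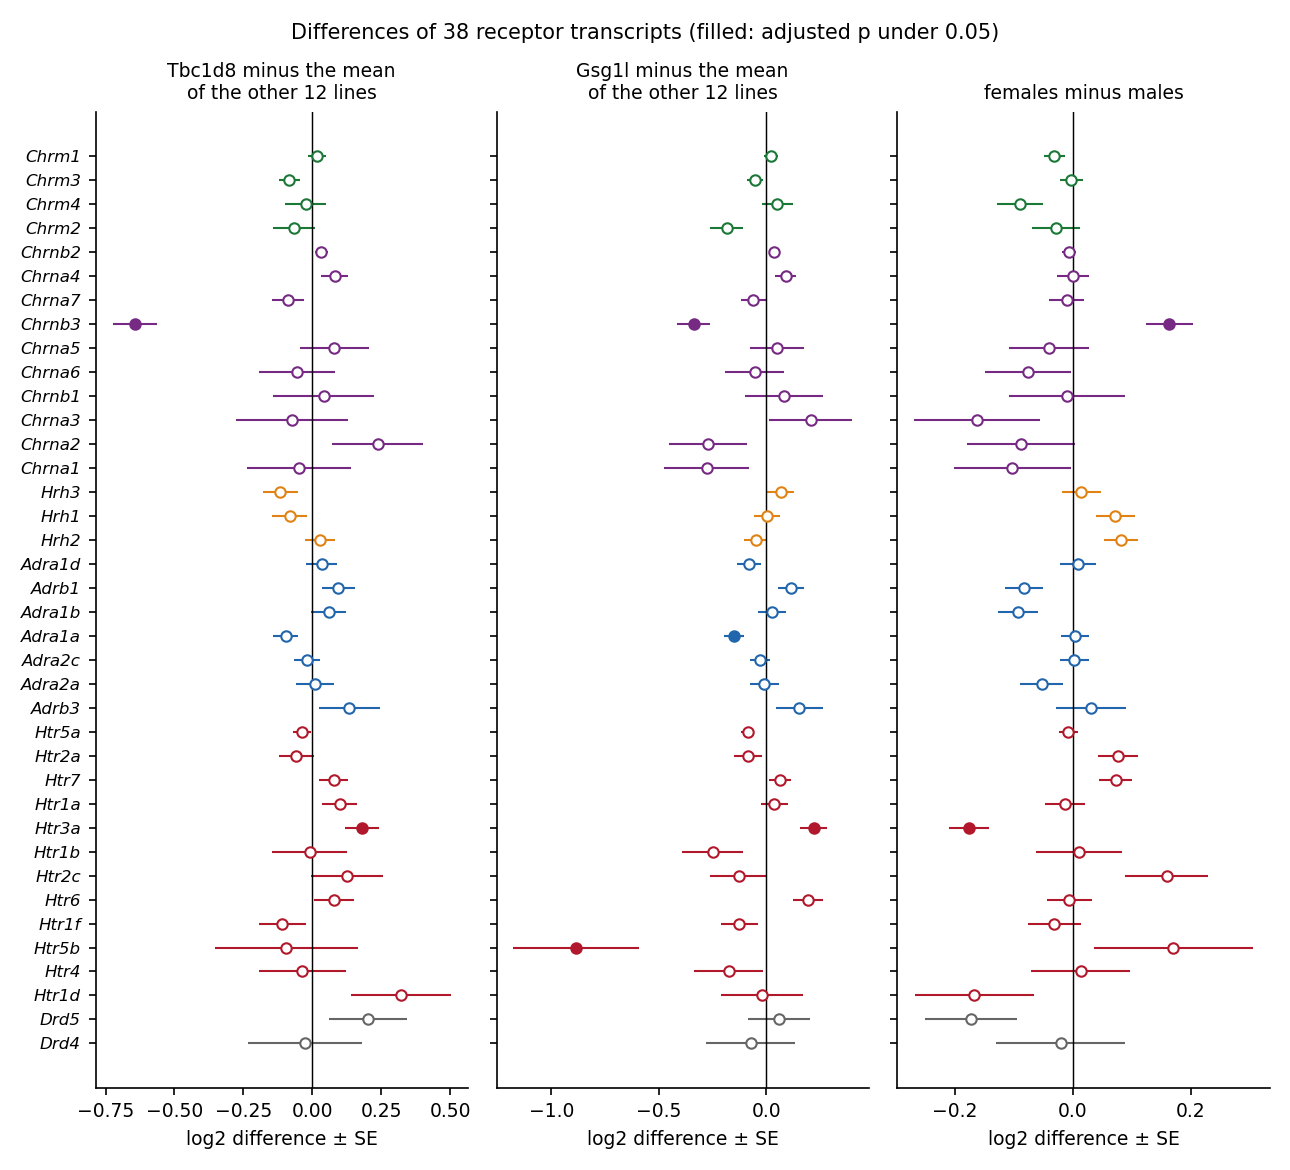
Log2 differences ± SE of 38 of the 39 tested receptor transcripts in Tbc1d8 and in Gsg1l against the mean of the other 12 lines, and in females against males, with filled points at an adjusted p under 0.05 and a separate horizontal scale in each panel. Chrnb3 is filled in all 3 panels, lower in both lines and higher in females, and Htr3a is filled with the opposite signs.

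By sex, 2 of 39 members passed, Chrnb3 higher in females and Htr3a lower, where 8.57% of all genes did (4.07% higher and 4.5% lower). At an unadjusted p under 0.05 there were 11 members (28.2%), against 22.6% of all genes. Chrnb3 had 7.21 ± 1.38 CPM in females (4.21 to 10.02, n = 52) and 6.45 ± 1.26 in males (3.68 to 9.69), a log2 difference of 0.16 ± 0.04 (adjusted p = 0.00313). The groups overlapped over most of their range, and the female mean was higher in 11 of 13 lines, with Ppp1ca and Rgs9 as the exceptions. Htr3a had 5.96 ± 0.91 CPM in females (3.84 to 8.41) and 6.75 ± 0.81 in males (5.10 to 8.13), a difference of -0.18 ± 0.03 (adjusted p = 0.000189). Its sign was the same in 13 of 13 lines, from -0.42 in Pcdh20 to -0.03 in Dach1.

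**Figure D5:**
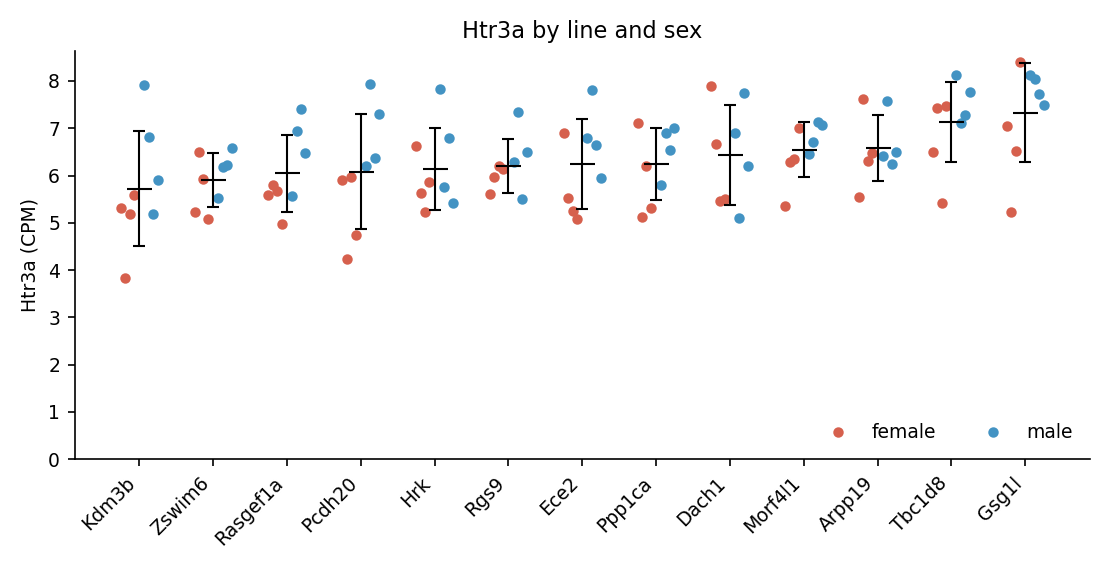
Htr3a in CPM in every library, by line, with females and males in separate colours and the mean ± SD of 8 libraries in black. Males lie above females on average in all 13 lines, with overlap, and Gsg1l and Tbc1d8 have the means 7.33 and 7.14 CPM.

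Without the 3 libraries that went against their labelled sex, the differences were 0.17 for Chrnb3 (adjusted p = 0.00348) and -0.18 for Htr3a (0.000267). Medians of marker sums differed by sex as well, with ranges that overlapped, and the sums were not tested. Of the single markers, 1 of 7 thalamic, 2 of 8 striatal, 1 of 6 oligodendrocyte and 0 of 10 interneuron genes passed by sex. Across all genes 8.57% did. The thalamic sum had a median of 259 CPM in females (222 to 280) and 248 in males (204 to 284), the striatal sum 190 (176 to 210) and 195 (180 to 218), the oligodendrocyte sum 2173 (1404 to 2571) and 2058 (1678 to 2516), and the interneuron sum 1273 (1166 to 1353) and 1289 (1139 to 1365). With the tissue scores as covariates both calls ended: Chrnb3 was 0.14 (adjusted p = 0.0729) and Htr3a -0.10 (0.0976). The next members by sex were Hrh2, 9.66 CPM in females and 9.08 in males (0.08 ± 0.03, adjusted p = 0.0577, and past the threshold under 8 of 28 alternatives), Adra1b (-0.09 ± 0.03, 0.0710) and Htr7 (0.07 ± 0.03, 0.0871).

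The sex difference was also compared between lines: 0 of 39 members passed this interaction test by edgeR, where 0.0382% of all genes passed, and 0 had an unadjusted p under 0.05, against 3.8% of all genes. Chrnb3 had an interaction p of 0.204 and Htr3a of 0.706, both unadjusted. Between plates, 0 of 39 passed where 0.242% of all genes did, and 5 had an unadjusted p under 0.05 (12.8%, against 12.5% of all genes). The lowest was Adra1a, with -0.16 for plate 2 minus plate 1 (adjusted p = 0.0862).

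Pairs of transcripts that share a receptor or a cell type were compared across the 104 mice, as log2 CPM, for 19 pairs with p-values from 100000 two-sided permutations within line and adjusted over the 19. Chrna4 and Chrnb2, which assemble into the main high-affinity nicotinic receptor, went together with r = 0.56 and rho = 0.55 (permutation p = 1e-05 for both, the smallest these permutations can give, adjusted 9.5e-05). With line and sex means removed r was 0.59, and without the 2 mice farthest from the median it was 0.53. Chrna5, an accessory subunit of deep-layer neurons, rose with the layer 6 marker score (r = 0.44, rho = 0.44, permutation p = 1e-05 for both, adjusted 9.5e-05; line and sex removed 0.44, without the 2 farthest mice 0.45). Htr3a rose with Vip, the peptide of an interneuron class that carries this channel (r = 0.44, rho = 0.40, permutation p = 0.00017 and 0.00153, adjusted 0.00108 and 0.00727; line and sex removed 0.38, without the 2 farthest 0.39).

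Chrna4 fell as the thalamic score rose (r = -0.34, rho = -0.37, permutation p = 0.0003 and 0.00028, adjusted 0.00142 and 0.00177; line and sex removed -0.38, without the 2 farthest -0.35). Htr1f rose with the layer 5 score by r only (r = 0.36, permutation p = 0.0044, adjusted 0.0167; rho = 0.29, permutation p = 0.0151, adjusted 0.0539), and r was 0.29 with line and sex removed and 0.27 without the 2 farthest mice. These were the 5 of 19 pairs that passed by r. Chrna3 and Chrnb4, neighbours that form the ganglionic receptor, gave r = 0.01 at the few reads they had. Htr2c and the choroid plexus transcript Ttr gave r = 0.21 and rho = 0.24 (permutation p = 0.0444 and 0.0324, adjusted 0.121 and 0.0757). With line and sex removed the rank correlation passed (rho = 0.25, permutation p = 0.0136, adjusted 0.0432) and r did not (0.20, permutation p = 0.0598, adjusted 0.162). All values of a pair come from the same library, so they share its depth and its dissection.

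Genes that make, clear and relay the transmitters were taken from 6 lists. The enzymes and vesicle transporters were low, as Tph2 at 0.531 FPKM, Th at 0.442 and Hdc at 0.324 show, and 2 of 8 tested were higher in females, against 4.07% of all genes. Hdc, which makes histamine, had 0.865 ± 0.284 CPM in females and 0.705 ± 0.246 in males (log2 difference 0.31 ± 0.09, adjusted p = 0.0133), and Tph2, the serotonin enzyme of raphe neurons, 1.58 ± 0.47 and 1.33 ± 0.35 (0.26 ± 0.07, 0.00986). By line 0 of 8 passed, against 9.61% of all genes, though Th, the first enzyme of catecholamine synthesis, fell by 0.83 ± 0.24 in Tbc1d8, from 0.858 CPM in the other 11 lines to 0.451 (adjusted p = 0.0125).

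Of 9 tested uptake and breakdown genes, 1 differed among lines and 0 by sex, against 9.61% and 8.57% of all genes, so that the count by line is near the background. It was Slc22a3, a low-affinity monoamine transporter, with 1.45 ± 0.41 CPM in Tbc1d8 (0.888 to 1.98) and 1.55 ± 0.55 in Gsg1l (0.860 to 2.41) against 0.768 ± 0.277 in the other 11 lines. Its log2 rise was 0.83 ± 0.17 in Tbc1d8 (adjusted p = 0.000160) and 0.93 ± 0.17 in Gsg1l (3.19e-05). Slc5a7, the choline transporter of cholinergic terminals, rose by 0.38 ± 0.13 in Tbc1d8 (adjusted p = 0.0441).

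Of 8 nicotinic chaperones and Ly6 proteins, which set the assembly and sensitivity of nicotinic receptors, 2 differed among lines and 0 by sex, against 9.61% and 8.57% of all genes. Ly6h rose by 0.15 ± 0.05 in Tbc1d8 (adjusted p = 0.0329) and in Gsg1l (0.0317). Lypd1 rose by 0.45 ± 0.11 in Tbc1d8 (adjusted p = 0.00116), where it had 31.6 ± 5.5 CPM against a mean of 23.8 ± 6.1 over all 104 libraries.

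Of the 2 other dopamine receptors, Drd1a was lower in females, at 6.23 ± 0.92 CPM against 6.81 ± 0.93 (-0.12 ± 0.04, adjusted p = 0.0172), beside a striatal sum that was also lower in females, and its part in this was not tested. Among 9 G protein alpha subunits 2 were lower in females, Gna11 (-0.04 ± 0.01) and Gnai2 (-0.04 ± 0.01), against 4.5% of all genes. By line 2 of 9 passed, Gnai1 and Gnal, against 9.61% of all genes: Gnai1, a partner of Gi-coupled receptors, fell by 0.11 ± 0.02 in Tbc1d8 and by 0.08 ± 0.02 in Gsg1l, and Gnal, the Gs-like subunit of striatal and olfactory cells, rose by 0.14 ± 0.02 in Tbc1d8. Gnas, the Gs subunit, fell by 0.04 ± 0.02 in Tbc1d8 (adjusted p = 0.0406).

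Of 7 receptor kinases and arrestins, which silence receptors after use, 4 differed by sex and 2 among lines, against 8.57% and 9.61% of all genes. Adrbk2 was lower in females, at 152 ± 8.7 CPM against 161 ± 9.1 (-0.09 ± 0.01, adjusted p = 1.75e-06), as was Grk6 (-0.04 ± 0.01), while Grk5 (0.07 ± 0.02) and Arrb1 (0.03 ± 0.01) were higher. Arrb1 fell by 0.10 ± 0.02 in Tbc1d8 and by 0.11 ± 0.02 in Gsg1l, and Adrbk2 rose by 0.12 ± 0.02 and 0.11 ± 0.02. Grk4 rose by 0.27 ± 0.07 in Tbc1d8 (adjusted p = 0.00936), and Grk5 fell by 0.13 ± 0.04 in Gsg1l (adjusted p = 0.0106).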

How the data were processed

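The series holds RNA-seq of 104 cortices (RNeasy RNA, stranded TruSeq libraries, per the labels' protocols). Gene counts and FPKM values were deposited by the authors as tables of all libraries. STAR 2.7.3a, HTSeq 0.10.0 and GRCm38/mm10 are named in the submitters' processing notes, and the strand setting of the counting is not given in the sources used here. The deposited FPKM equal the deposited RefSeq counts divided by the library total and 1 length per gene (largest relative gap 4.27e-07). Of the Ensembl counts, 19563 genes were used and 1 incomplete line was left out. Chrna5 and Chrna3 overlap by 1304 bases, so their reads may be split.

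Counts were scaled by TMM, filtered with filterByExpr and fitted with edgeR 4.0.16 (R 4.3.3, quasi-likelihood, line and sex terms, 15723 genes tested), at a Benjamini-Hochberg adjusted p under 0.05. Standard errors are the log2 difference divided by the square root of F. CPM values are TMM-scaled. DESeq2 1.42.0 and limma 3.58.1 served as alternatives, with other scalings, filters, the Ensembl counts, log2(FPKM + 0.1) or log2(FPKM + 1), marker scores as covariates, 1 plate, 1 sex, and single libraries or lines left out. The comparison of Tbc1d8 with Gsg1l and the run without both lines were added after the data were seen. So was leaving out single libraries of these lines, except for Gsg1l female 14. Log2 CPM for the pairs used a prior count of 2. The fits were tested on simulated data.

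Replicates are separately labelled mice. Members and lists were chosen with earlier results of these data known. Members named with full statistics are those past each test with the 3 next by p, the highest and lowest of each transmitter, the 5 most and 5 least variable, and up to 4 called genes of each list. The values of 1 tested member are not reported here and not drawn, though it is counted among the 39.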

Additional observations from a re-analysis of the deposited data

How the results depend on the processing

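Chrnb3 kept its call in Tbc1d8 under all 22 alternatives tried (log2 differences of -0.69 to -0.35) and in Gsg1l under 20 of 21. The number of members that differed among lines was 1. It was 2 under a filter of at least 1 CPM in at least 52 libraries, with the Ensembl counts, with limma on log2(FPKM + 0.1) or log2(FPKM + 1) and with tissue scores, 3 with DESeq2, and 0 without the lines Tbc1d8 and Gsg1l. It was 1 to 3 on leaving out a line in turn, and 1 to 2 on leaving out 1 library of Tbc1d8 or Gsg1l, except for 4 without Gsg1l female 14. Calls of a member in a single line came to 6 (4 members, of which Chrnb3 and Htr3a were called in both lines), and became 3 on plate 1 alone, 1 in females, 2 in males and 5 to 7 under the other alternatives. In Tbc1d8 it was 2, and became 1 on plate 1 alone, in females and in males, and 1 to 2 on leaving out a library. In Gsg1l it was 4, and became 2 on plate 1 alone, 0 in females, 1 in males and 1 to 5 on leaving out a library. By sex it was 2, and 0 with tissue scores. Hrh2 passed by sex under 8 of 28 alternatives (adjusted p down to 0.0129), Htr7 under 2 and Adra1b under 1. Same-numbered females and males of a line deviated together little more than other pairs of the line. A correlation over 0.1 was seen in 8 of 52 same-numbered pairs (median 0.017) and 22 of 156 others (median -0.004). With the number as a replicate block in place of line 4 members passed by sex (Adrb1, Chrnb3, Htr3a and Htr7). Of the other calls in Gsg1l, Htr3a was lost under 5 of 21 alternatives, Adra1a under 6 of 21 and Htr5b under 10 of 20, and Htr3a in Tbc1d8 under 12 of 22. With line and sex means removed, 6 of 19 pairs passed against 5 without this step, and r changed sign to -0.0216 for Htr2c with the striatal score, -0.0215 for Chrna3 with Chrnb4 and -0.00781 for Adra2a with the layer 6 score. The counting depth limits Htr5b, Drd4 and Chrna3, at a median of 14, 10 and 14.5 reads per library. The causes of these changes were not tested.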
